A study of Arabidopsis thaliana with 30 samples.

Results

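The 10 expansin genes described here are EXPA1, EXPA2, EXPA4, EXPA5, EXPA6, EXPA7, EXPA8, EXPA10 and EXPA11, which encode α-expansins, and EXPB1, which encodes a β-expansin. They are 10 of the 20404 genes in the deposited expression tables of Arabidopsis thaliana and 10 of the 24 expansin superfamily genes found there, and the remaining 12 of 36 superfamily genes listed in RefSeq are not analysed here. The members were selected by gene symbol and by having a row in the table, which holds genes with at least 1 read in every library, and the selection was made with results of these data already known. One of those results was the low EXPA2 level in several mutants, so every value of EXPA2 in a mutant against Col, mock or MMS, is given as a description without a test. Seedlings of 7 days were grown on plates, and RNA was sequenced from 5 genotypes in the Columbia background: wild type (Col), h2a.x-1 (X), h2a.w-2 (W), h2a.x/w-2 (XW) and tsk. The labels assign X to H2A.X and W to H2A.W, both variants of histone H2A, and XW to the pair, and tsk is a mutant of TONSOKU, a repair protein of replication forks. Each genotype was treated with mock or with methyl methanesulfonate (MMS), a DNA-alkylating agent, which gave 10 groups of 3 libraries. The labels used here state neither the concentration nor the duration of MMS, nor whether the 3 replicates of a group were grown separately, so the p-values may measure only technical spread.

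Expansins are secreted proteins of the plant cell wall that loosen the bonds between cellulose and its surrounding glycans at acid pH, without cutting them, so that turgor can extend the wall. In the acid growth model, auxin and brassinosteroid raise proton pump activity, the wall becomes acidic and expansins act. Family members are expressed in different organs of the seedling: EXPA7 and EXPA18 are known from root hairs, EXPA1 from guard cells and growing roots, EXPA2 from germinating seeds, and EXPA10 from petioles and leaf blades.

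Depth was 15343687 to 25115027 reads per library over the listed genes. The tissue field names leaves and the protocol names seedlings. Root markers were detected in every group (5 of 6 in the table, among them CASP1, an endodermal gene), as were all 5 leaf markers. Mock replicate 1 of XW stood apart from its group (chi-square per degree of freedom 17.1 and 18.5 against replicates 2 and 3, and at most 8.28 between replicates elsewhere). TSK was lower in tsk than in Col (53.2 ± 7.15 against 155 ± 7.13 normalized counts in mock). Of the H2A.X genes, HTA5 was lower in X (191 ± 19 against 1039.8 ± 10.4 in Col mock) and HTA3 was not called (-0.21). Of the H2A.W genes, HTA6 was lower in W in mock (798 ± 35.9 against 1144 ± 38.5) and not called under MMS (-0.02), HTA7 was not called in either, and HTA12 was higher in both (0.48 and 0.84), although HTA12 overlaps AT5G02570 on the other strand. None of these 5 genes was called lower in XW, where HTA5 stood at 916 ± 37.2 in mock and HTA6 was higher than in Col under MMS (1.38). What each allele does to its transcript is not stated, and these levels bear out neither W nor XW beyond HTA6 in W mock, nor X beyond HTA5, and X, W and XW below mean the libraries so labelled.

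The level of each member in mock-treated Col was compared first, as normalized counts (reads divided by a size factor for the library) per kb of the longest RefSeq transcript, because counts of genes of different length are not comparable. EXPA1 was the most abundant member at 1945 ± 147 per kb (mean ± SD, n = 3). EXPA4 followed at 798 ± 16.4 and EXPA6 at 791 ± 12.2, and the libraries of these neighbours overlapped. EXPA8 at 342 ± 71.9 and EXPA10 at 335 ± 18.8 overlapped as well. EXPA5 followed at 286 ± 25.3, and its libraries overlapped those of EXPA8 and not those of EXPA10. The lowest levels per kb were those of EXPA11 (127 ± 14.4), EXPB1 (125 ± 4.17), EXPA7 (95.9 ± 14.6) and EXPA2 (75.5 ± 17.1), of which EXPA11 overlapped EXPB1 and EXPA7 overlapped EXPA2. The most and least abundant members thus differed by more than an order of magnitude in the same seedlings.

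That order was different under MMS. In Col MMS libraries EXPA10 stood at 271 ± 55.6 per kb and EXPA1 at 262 ± 36.3, with overlapping libraries. EXPA4 followed at 189.7 ± 35.5 and overlapped EXPA7 at 147 ± 24.8. EXPA6 was at 92.7 ± 6.80, EXPA11 at 69.2 ± 1.02 and EXPA5 at 38.9 ± 0.977, with no overlap between these neighbours. EXPA8 at 14.6 ± 3.73 and EXPA2 at 13.5 ± 5.24 overlapped, and EXPB1 was lowest at 4.65 ± 0.527. EXPA7, a root hair expansin, moved from the ninth place to the fourth, and EXPA10 from the fifth to the first.

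**Figure D1:**
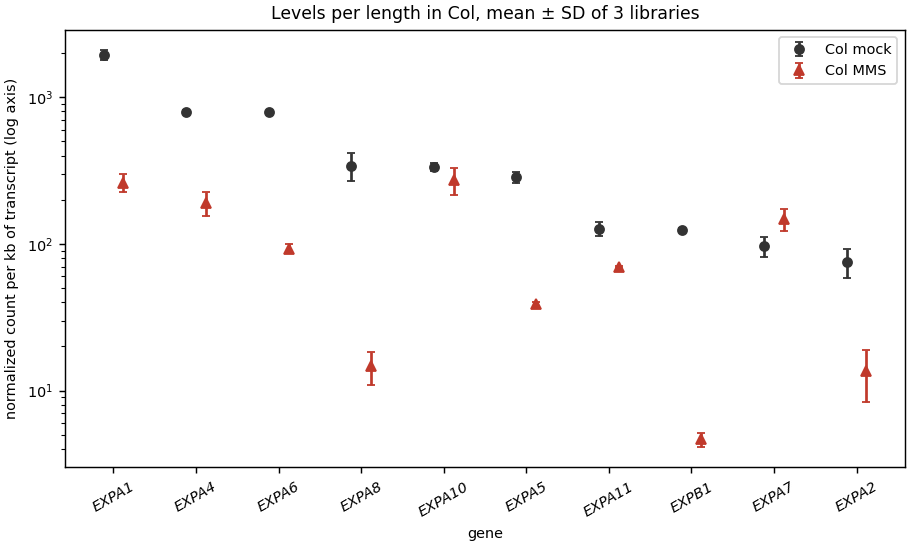
Normalized count per kb of the longest transcript (vertical log axis) of the 10 expansin genes in Col, mock as circles and MMS as triangles, with mean and SD of 3 libraries. EXPA1 falls from 1945 to 262 per kb, while EXPA10 changes less (335 to 271) and EXPA7 is higher under MMS (95.9 to 147).

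The question of the treatment was asked first in wild type. EXPB1 and EXPA8 fell most under MMS. EXPB1 counted 197, 184 and 189 normalized counts in the 3 Col mock libraries and 7.86, 7.16 and 6.26 in the 3 Col MMS libraries. The groups were far apart, and the fitted level was 23.7-fold lower (log2 fold change -4.57, SE 0.35, adjusted p = 2.8e-12, limma on log2(normalized count + 1), Benjamini-Hochberg adjusted over 20298 genes). EXPA8, an α-expansin, counted 549, 449.9 and 359 in mock and 14.7, 24.6 and 18.8 under MMS, 22.4-fold lower (-4.49, SE 0.37, adjusted p = 9.5e-12). These MMS values rest on 6 to 8 recovered reads per library for EXPB1 and 15 to 24 for EXPA8, and the added 1 understates the fold of such low counts. In seedling tissue a lower count cannot tell fewer cells of a type from less RNA per cell.

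The abundant members also fell. EXPA1 counted 3079.9, 2672 and 2761 in Col mock and 439, 335 and 372 in Col MMS, 7.45-fold lower (-2.90, SE 0.14, adjusted p = 5.36e-17). EXPA6 counted 1279, 1255 and 1240.4 and then 150.3, 157 and 136, 8.49-fold lower (-3.09, SE 0.14, adjusted p = 3.02e-17). The 3 libraries of each group lay close together and no library of one group came near the other. EXPA4 fell by 4.25-fold, from 1197 ± 24.6 to 285 ± 53.2 (adjusted p = 1.75e-14). EXPA5, a gene known to respond to brassinosteroid, fell by 7.22-fold, from 408 ± 36.1 to 55.5 ± 1.39 (adjusted p = 3.72e-14). The germination expansin EXPA2 went from 87.2, 88.5 and 57.4 to 12.8, 9.21 and 19.8 (-2.43, SE 0.50). Its Col mock level stood above several mutants in results known at selection, so this call is not independent of the selection. Of the 2 seed markers in the table PER1 fell as well (-2.50, SE 0.19) and CRU1 was not called (-0.59, SE 0.55), with a sum of 43.2 to 251 against 246 to 351 in mock, and their part in the EXPA2 value was not tested. EXPA11 fell less, from 167 ± 19 to 91.0 ± 1.34 (-0.86, SE 0.16, adjusted p = 3.31e-05).

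EXPA7 and EXPA10 were not called lower in Col. EXPA7 counted 88.6, 113 and 119.6 in mock and 138, 164 and 193 under MMS. Its MMS libraries all lay above its mock libraries, and the gene rose (0.61, SE 0.19, adjusted p = 0.00473). Of the 10 root hair markers in the table, 3 were lower in this comparison (COBL9 -0.84, RHD6 -0.91 and RHS19 -0.55) and 2 higher (RSL4 1.14 and PRP1 0.89), with a sum of 1157 to 1350.1 against 1270.0 to 1558 in mock, and their part in the EXPA7 value was not tested. EXPA10 counted 483, 538 and 524 in mock and 399.8, 509.6 and 341 under MMS, the groups overlapped, and it missed the threshold (-0.32, SE 0.15, adjusted p = 0.0568). It passed without MMS replicate 2 of Col, its highest MMS library (-0.48, adjusted p = 0.00937).

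In Col, then, 8 of 10 members were called lower and 1 higher at an adjusted p under 0.05, where 35.6% of all tested genes were called lower and 35.4% higher. Falls of at least 4-fold were made by 7 of the 10, against 3.52% of all tested genes. The 8 and the 7 include EXPA2, whose call is not independent of the selection. The median log2 fold change of the members was -2.64, beside 0.00515 over all genes tested. The members were chosen with earlier results of these data known, so these shares and this median describe the chosen genes and not expansins at large. The other superfamily genes in the table had a smaller median fall, given below. The summed normalized counts of the 10 genes were 7054 to 7505 in Col mock and 1536 to 1636 in Col MMS. Summed leaf marker counts moved in the same direction (691529 to 714191 in mock, 331358 to 344392 under MMS, 5 of 5 markers lower, none at 0), and their part in the fall of the expansins was not tested. Root markers moved both ways under MMS (4 of 5 lower and PHT1-1, a phosphate transporter gene, higher), with a sum of 3736 to 4093 in mock and 6141 to 6473 under MMS.

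**Figure D2:**
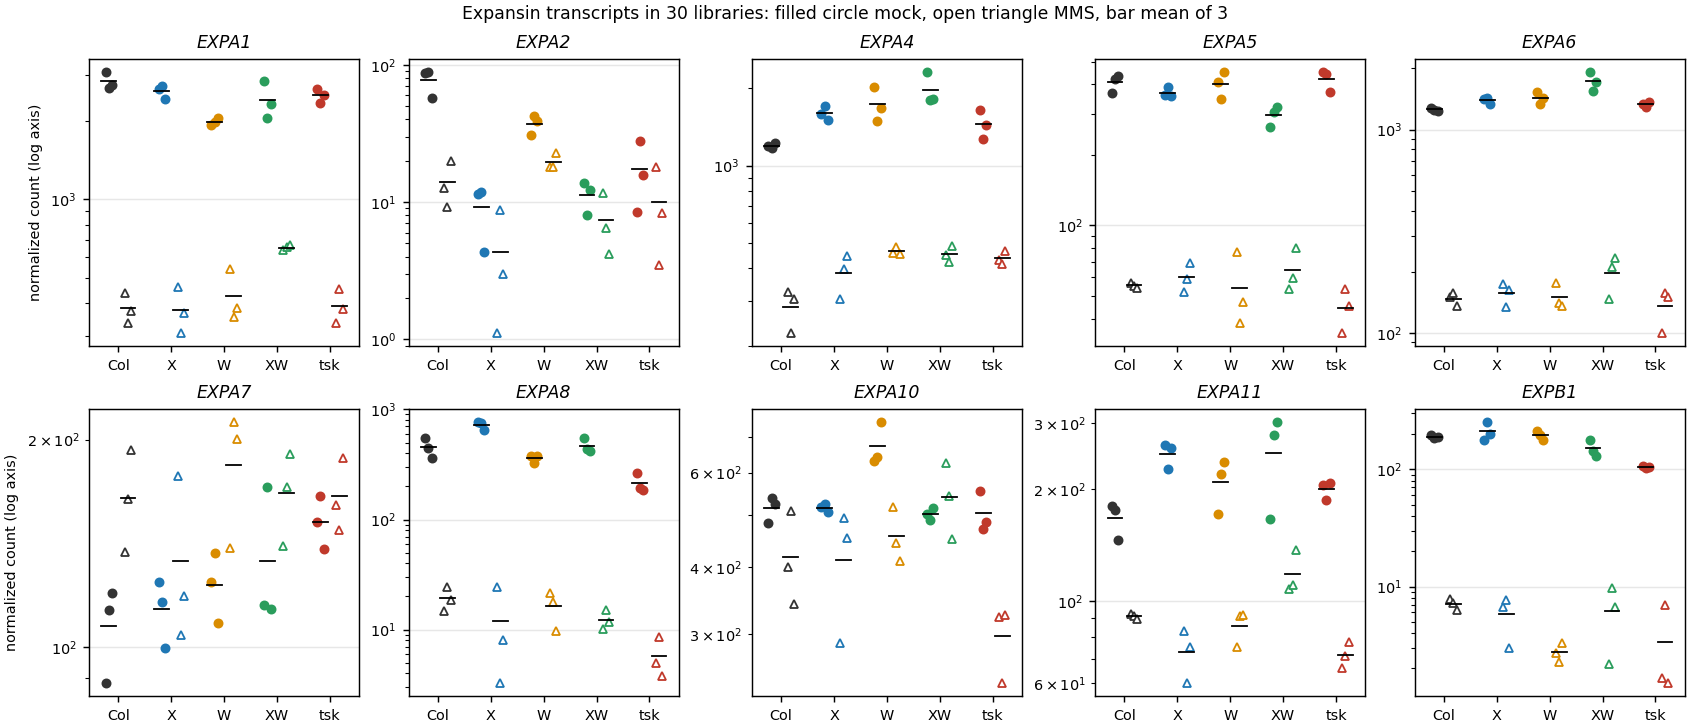
Normalized counts (vertical log axis, its range set for each gene) of the 10 expansin genes in all 30 libraries, with filled circles for mock, open triangles for MMS and a bar at the mean of 3 libraries. For EXPA8 and EXPB1 the MMS libraries sit far below the mock libraries in all 5 genotypes. For EXPA7 they lie above mock in Col and W, and the treatments overlap in X, XW and tsk. For EXPA10 the treatments overlap in Col and XW and not in X, W and tsk.

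The falls recurred in the other genotypes, each measured against its own mock. In X 9 members were called lower (all genes 36.8%) and 0 higher (36.2%), 6 of them by at least 4-fold (3.66% of all genes). The 9 include EXPA2, whose call is not independent of the selection. In W 8 were lower (36.8%) and 1 was higher (36.0%), with 5 by at least 4-fold (3.39%). In XW 7 were lower (35.4%) and 0 higher (36.2%), with 5 by at least 4-fold (3.60%). In tsk 8 were lower (35.5%) and 0 higher (35.4%), with 5 by at least 4-fold (3.18%). EXPA1, EXPA4, EXPA5, EXPA6, EXPA8, EXPA11 and EXPB1 were lower in all 5 genotypes, and their mock and MMS libraries did not overlap in any of them. EXPA8 had log2 fold changes from -4.43 in W to -6.19 in X, and EXPB1 from -4.55 in XW to -5.71 in W. EXPA6 kept to a narrow range, -3.09 in Col to -3.32 in tsk.

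EXPA10 and EXPA2 were called in some genotypes only. EXPA10 was lower in X (-0.36), W (-0.56) and tsk (-0.77), and in XW it stood at 502 ± 13.4 in mock and 539.8 ± 87.0 under MMS (0.09, SE 0.15, adjusted p = 0.6). EXPA2 was lower in X (-1.12, SE 0.50, adjusted p = 0.0446) and was not called in W (-0.89), XW (-0.62) or tsk (-0.84), where its mock means were 37.3 ± 5.94, 11.4 ± 2.93 and 17.3 ± 9.77. Low EXPA2 levels in several mutants were known at selection, so these outcomes for EXPA2 are not independent of the selection either. The X call of EXPA2 rests on 1 to 11 reads per library. It was lost without X mock replicate 1 or 2 or X MMS replicate 1 or 3 (adjusted p 0.0962 to 0.308), and with edgeR or DESeq2 on recovered reads (0.0949 to 0.162). The X call of EXPA10 was lost without any X mock library (0.0547 to 0.0717) or X MMS replicate 1 (0.429). EXPA7 rose in W (0.56, SE 0.19, adjusted p = 0.00895), a call lost without W MMS replicate 2 (0.0586), and had values of 0.20, 0.34 and 0.12 in X, XW and tsk.

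**Figure D3:**
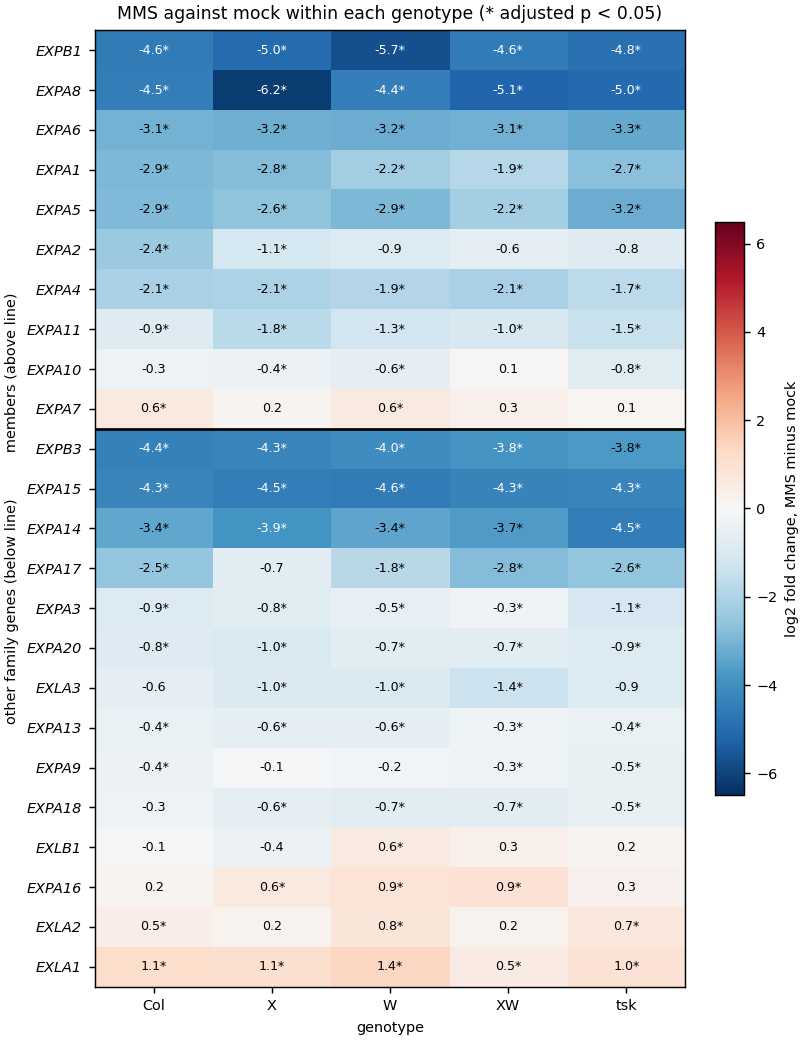
Log2 fold change of MMS against mock (colour and number, on normalized counts + 1) in each of 5 genotypes for the 10 members above the line and the 14 other expansin superfamily genes below it, with a star for an adjusted p under 0.05. EXPB1 and EXPA8 lead the falls at -4.57 and -4.49 in Col, EXPB3 and EXPA15 lie nearby, and EXLA1 is higher in every genotype. The stars of EXPA2 in Col and X are not independent of the selection of the members.

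The upstream sequence of the members was read for motifs, since most members fell together while EXPA7 did not. Shown are 250 bases before the annotated gene start (RefSeq, assembly TAIR10.1, 5′ to 3′ on the gene's strand) of the members with the largest falls, EXPB1 and EXPA8, of EXPA1 and EXPA10, which are the closest pair of members in coding sequence and responded differently, and of EXPA7 beside EXPA18. Capitals mark matches on either strand to the brassinosteroid response element (CGTGTG or CGTGCG), the auxin response element (TGTCTC), the TATA box (TATAAA) or the root hair element.
EXPB1, chr2:8940583-8940832, plus strand: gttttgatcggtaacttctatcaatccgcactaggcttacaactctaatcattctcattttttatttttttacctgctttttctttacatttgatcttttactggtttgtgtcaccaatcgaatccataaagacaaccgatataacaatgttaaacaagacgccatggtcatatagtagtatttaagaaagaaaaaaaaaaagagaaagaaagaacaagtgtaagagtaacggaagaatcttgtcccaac
EXPA8, chr2:16950706-16950955, minus strand: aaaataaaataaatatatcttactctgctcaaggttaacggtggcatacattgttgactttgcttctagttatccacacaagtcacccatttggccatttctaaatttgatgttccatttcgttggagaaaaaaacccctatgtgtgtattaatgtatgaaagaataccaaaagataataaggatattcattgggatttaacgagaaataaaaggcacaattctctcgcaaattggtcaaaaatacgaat
EXPA1, chr1:26141476-26141725, plus strand: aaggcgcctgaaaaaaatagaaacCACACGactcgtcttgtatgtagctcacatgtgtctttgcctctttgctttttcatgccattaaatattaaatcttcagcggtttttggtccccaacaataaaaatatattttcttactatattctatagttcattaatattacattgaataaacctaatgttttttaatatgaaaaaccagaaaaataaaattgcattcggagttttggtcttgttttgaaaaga
EXPA10, chr1:9259182-9259431, plus strand: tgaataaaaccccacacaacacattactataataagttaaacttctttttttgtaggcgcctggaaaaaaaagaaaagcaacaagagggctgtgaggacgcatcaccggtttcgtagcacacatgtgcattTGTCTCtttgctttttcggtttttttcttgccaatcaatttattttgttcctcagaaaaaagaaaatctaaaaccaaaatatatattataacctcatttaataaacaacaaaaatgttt
EXPA7, chr1:4276255-4276504, plus strand: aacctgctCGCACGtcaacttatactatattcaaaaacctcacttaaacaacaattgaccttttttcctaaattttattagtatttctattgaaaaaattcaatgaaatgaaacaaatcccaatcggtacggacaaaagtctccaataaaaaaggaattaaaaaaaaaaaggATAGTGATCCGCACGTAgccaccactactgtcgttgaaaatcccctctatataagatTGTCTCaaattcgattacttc
EXPA18, chr1:23331313-23331562, plus strand: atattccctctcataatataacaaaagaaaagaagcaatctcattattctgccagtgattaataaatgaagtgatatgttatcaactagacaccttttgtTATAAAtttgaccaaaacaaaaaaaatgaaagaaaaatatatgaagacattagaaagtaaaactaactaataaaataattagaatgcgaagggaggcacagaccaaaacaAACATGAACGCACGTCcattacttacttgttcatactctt

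The EXPB1 window held none of the capitalised motifs and neither did that of EXPA8. The brassinosteroid response element occurred in 4 of 10 members (EXPA1, EXPA2, EXPA6 and EXPA7) and in 7.02% of the 20297 windows of all tested genes with a readable window. The auxin response element occurred in 4 of 10 (EXPA5, EXPA6, EXPA7 and EXPA10) and in 10.7% of all windows. The root hair element, a motif known from root hair genes, lay in the EXPA7 window from 78 to 62 bases before the start and in that of EXPA18 from 40 to 25, and in 0.759% of all windows. In each of them a brassinosteroid motif lies within the root hair element, and a further one in EXPA7 shares a base with a W-box, so these letters were counted under both names. The string TATAAA, anywhere in the window, occurred in 3 of 10 members (EXPA4, EXPA5 and EXPA11) and 46.0% of all windows. The EXPA4 matches began 220 and 208 bases before the start, and that of EXPA11 began 217 before it on the other strand. Other forms of the TATA box were not searched, so a window without the string may still hold one. The W-box (TTGAC, not capitalised) occurred in 3 of 10 (EXPA4, EXPA7 and EXPA8) and 45.1%. No member window held the G-box (CACGTG, 7.41% of all windows), the E2F site (TTTCCCGC, 0.631%), site II (GGCCCA, 16.4%) or the spaced motif of SOG1, the DNA damage transcription factor of plants (CTT and AAG 7 bases apart, 8.97%). Of the 14 other superfamily genes in the table, 3 held the brassinosteroid element, 0 the auxin element, 10 the string TATAAA and 4 the W-box. Among them the G-box was in 0, and the E2F site, site II and the SOG1 motif were in 1 each. A match is a string of letters in this window only and is not a measured binding site.

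**Figure D4:**
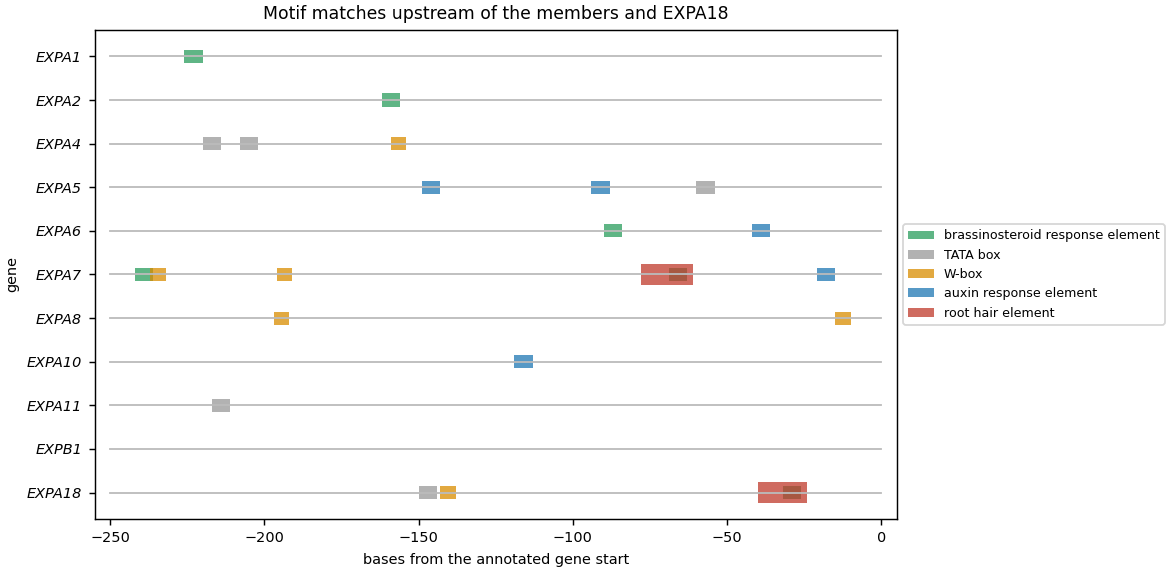
Motif matches (coloured boxes, to scale) in the 250 bases before the annotated gene start of the 10 members and EXPA18, on a horizontal axis in bases from the start. The root hair element is seen in EXPA7 and EXPA18, and EXPB1 has no box.

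The members differ in place and sequence. On chromosome 1 (RefSeq, TAIR10.1) lie EXPA1 (AT1G69530, chr1:26141726-26143538), EXPA7 (AT1G12560, chr1:4276505-4277969) and EXPA10 (AT1G26770, chr1:9259432-9261313) on the plus strand and EXPA11 (AT1G20190, chr1:6998335-6999839) on the minus strand. On chromosome 2 lie EXPA4 (AT2G39700, chr2:16543832-16545746), EXPA6 (AT2G28950, chr2:12431338-12433796) and EXPA8 (AT2G40610, chr2:16948791-16950705) on the minus strand and EXPB1 (AT2G20750, chr2:8940833-8942706) on the plus strand. EXPA5 (AT3G29030, chr3:11011262-11013451, minus) and EXPA2 (AT5G05290, chr5:1568694-1569915, plus) lie elsewhere. Each is a protein-coding gene with 3 or 4 exons and a coding length of 759 to 828 bases. Coding identity was highest between EXPA1 and EXPA10 at 79.73% of aligned bases. EXPA4 was closer to EXPA16 (81.14%) than to the member EXPA6 (78.2%), EXPA7 was closest to EXPA18 (75.43%) and EXPB1 to EXPB3 (78.44%). How reads shared by similar or overlapping genes were counted is not given in the sources used here. EXPA2 overlaps AT5G05300 and EXPA7 overlaps AT1G12570 on the other strand, by 61 of 1029 and 23 of 1117 exon bases, and the strand of counting is not stated either. AT1G12570 fell under MMS in Col (log2 fold change -2.09), opposite to EXPA7.

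The closest relatives of the members were read in the same comparison of MMS with mock in Col. Of the 14 other superfamily genes in the table, 8 were called lower and 2 higher (35.6% and 35.4% of all tested genes), with a median log2 fold change of -0.51. EXPB3, the β-expansin nearest to EXPB1, went from 1253, 1194 and 1416 normalized counts to 61.9, 67.5 and 52.1 (-4.39, SE 0.16, adjusted p = 4.18e-19). EXPA15 went from 774 ± 77.3 to 39.7 ± 8.92 (-4.27, SE 0.22). EXPA14 (-3.40) and EXPA17 (-2.52), α-expansins known from lateral roots, fell too, and EXPA3, EXPA20, EXPA13 and EXPA9 fell by 0.89 to 0.38 on the log2 scale. The expansin-like genes EXLA1 (252 ± 20.8 to 553 ± 76.2, 1.13, SE 0.13, adjusted p = 9.54e-09) and EXLA2 (0.46, SE 0.15, adjusted p = 0.00695) rose, and expansin-like proteins are not known to loosen walls. EXPA18, which shares the root hair element with EXPA7, was not called (-0.33, SE 0.19, adjusted p = 0.124).

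Proton pumps and growth regulators, which act upstream of expansins, and genes that make wall cellulose were read from lists set out with earlier results known. Over all tested genes 35.6% were lower and 35.4% higher in this comparison. Of 7 acid growth genes tested (12 listed), 6 were lower and 0 higher in Col under MMS, median -1.05. AHA2, a plasma membrane proton pump, fell (-1.05, SE 0.07), as did AHA3 (-0.55) and the auxin-induced SAUR63 (-2.36). Of 19 growth regulators tested (22 listed), 12 were lower and 5 higher, median -0.64, and the members of this list went in opposite directions. BEE2, a brassinosteroid-induced transcription factor, fell (-2.55, SE 0.10) and PIF4, a growth-promoting phytochrome interactor, fell (-2.005, SE 0.12), while its relative PIF3 rose (2.32, SE 0.12). Of 9 genes of primary wall cellulose synthesis, 3 were lower, among them CESA5 (-1.01) and CESA2 (-0.64), and 4 higher, among them KOR1 (0.35), with a median of -0.00226. The median over all genes tested lay between -0.00477 and 0.0118 in the 5 comparisons of MMS with mock.

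Without MMS, EXPA2 stood lower in X, XW and tsk than in Col, and EXPA4 was called higher in X, W and XW. All 4 comparisons share the 3 Col mock libraries, so their values stand side by side and are not independent. EXPA2 counted 87.2, 88.5 and 57.4 in Col. It counted 11.4, 11.8 and 4.33 in X, 13.7, 8.08 and 12.3 in XW and 8.43, 27.8 and 15.6 in tsk, with log2 fold changes of -3.03, -2.67 and -2.22 (SE 0.50 each). In W it counted 30.7, 42.3 and 38.8, between Col and the other mutants (-1.02, SE 0.50). No library of any mutant reached the lowest Col library, which itself lay apart from the other two. Seed storage transcripts were measured beside this germination gene: of 10 seed markers 2 were in the table, CRU1 and PER1, with summed counts of 246 to 351 in Col mock, 215 to 450.0 in X, 365 to 823 in W, 889.7 to 1415 in XW and 1396 to 2935 in tsk. Both were higher in XW and tsk (CRU1 2.53 and 3.45, PER1 0.93 and 1.49), PER1 was also higher in W (0.61), and their part in the EXPA2 values was not tested.

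EXPA4 was higher in the histone mutants. It counted 1195, 1174 and 1223 in Col, 1586, 1706 and 1508 in X, 2023, 1489.8 and 1681 in W and 2304, 1799.6 and 1806 in XW. All 9 mutant libraries lay above the 3 of Col, and the gene rose in X (0.42, SE 0.13, adjusted p = 0.0432), W (0.52, SE 0.13, adjusted p = 0.00633) and XW (0.71, SE 0.13, adjusted p = 0.000137). In tsk it counted 1641, 1268 and 1433, also above Col, and was not called (0.27, SE 0.13, adjusted p = 0.129). The X call was lost without any 1 of its 6 libraries (adjusted p 0.0725 to 0.152) and the W call without W mock replicate 1 (0.0635), while the XW call held without each (0.00025 to 0.00231).

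The other calls without MMS each concerned 1 or 2 mutants. EXPA11 rose in X (0.57, SE 0.16, adjusted p = 0.0297) and in XW (0.53, SE 0.16, adjusted p = 0.0173), with 180.2, 176 and 145 in Col, 262, 226 and 257 in X and 165, 279.7 and 303 in XW. Mock replicate 1 of XW, the library that stood apart, lay within the Col range. EXPA11 in X was lost without any Col mock library or X mock replicate 1 or 3 (0.0539 to 0.14). EXPA11 in XW was lost without Col mock replicate 3 or XW mock replicate 2 or 3 (0.0886 to 0.124). EXPA6 rose in XW (0.45, SE 0.14, adjusted p = 0.0178), where it counted 1919, 1554 and 1720.4 against 1279, 1255 and 1240.4 in Col, and was lost without XW mock replicate 1 (0.0883) or Col mock replicate 3 (0.0505). EXPA1 was lower in W, 1930.1, 1980.2 and 2058 against 3079.9, 2672 and 2761 (-0.51, SE 0.14, adjusted p = 0.0115), and was lost without Col mock replicate 1 (0.065).

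In tsk, EXPA8 counted 267, 193 and 184 against 549, 449.9 and 359 in Col, with no overlap (-1.07, SE 0.37, adjusted p = 0.0314). It was lost without Col mock replicate 1 or 2 or tsk mock replicate 2 or 3 (adjusted p 0.0727 to 0.122). EXPA7 counted 152, 165 and 139 against 88.6, 113 and 119.6 (0.51, SE 0.19, adjusted p = 0.0448), and was lost without any library but Col mock replicate 3 (0.055 to 0.207). Of the 20 tested genes nearest to EXPA7 on chromosome 1, 7 were also called higher in tsk mock (all genes 10.9%) and 0 lower (15.1%). Their median log2 fold change was 0.14, while 0 to 2 neighbours of every other member were higher. Root hair markers summed to 1623 to 2060 in tsk mock against 1270.0 to 1558 in Col mock (10 of 11 in the table, none at 0, 1 called higher, MRH6 at 0.75). The part of the neighbours and of the root hair markers in the EXPA7 value was not tested. EXPB1 counted 108, 104 and 105 in tsk against 197, 184 and 189 in Col, with no overlap. It missed the threshold (-0.85, SE 0.35, adjusted p = 0.0783) and passed with edgeR or DESeq2 on recovered reads (0.000211 and 6.69e-06). The limma SE of a gene rests on a spread shared by all 10 groups and not on these 6 libraries alone. For EXPB1 these groups include tsk MMS, with 2, 8 and 2 reads. The part of such low counts in the missed threshold was not tested.

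A few values that missed the threshold passed with edgeR or DESeq2 on recovered reads: EXPA8 in X (0.69, adjusted p = 0.287, against 0.00634 and 0.00268) and EXPA5 in XW (-0.46, 0.0606 against 0.0105 and 0.00659). EXPA8 counted 773, 747 and 652 in X, wholly above Col. The limma spread of EXPA8 is likewise shared by all 10 groups, among them X MMS with 22, 3 and 8 reads.

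Counted over the 9 members other than EXPA2, X mock had 2 higher (all genes 4.28%) and 0 lower (3.18%). W mock had 1 higher (6.04%) and 1 lower (7.07%). XW mock had 3 higher (11.8%) and 0 lower (13.4%), and tsk mock had 1 higher (10.9%) and 1 lower (15.1%). These calls dropped to 0 in X without any Col mock library or X mock replicate 1 or 3 and to 1 without X mock replicate 2. They dropped to 1 in W without Col mock or W mock replicate 1, to 1 in XW without Col mock replicate 3, and in tsk to 0 without Col mock replicate 1 or 2 or tsk mock replicate 2 or 3 and to 1 without tsk mock replicate 1. Medians over all 10 members were 0.11, 0.11, 0.02 and 0.01 in X, W, XW and tsk, all close to the medians over all genes (-0.04 to 0.00265). Of the 14 other superfamily genes, XW had 4 higher and 1 lower and tsk had 0 higher and 3 lower. EXPB3 was higher in X (0.65), W (0.68) and XW (0.58) and lower in tsk (-0.45). EXLA1 (0.84), EXPA18 (0.53) and EXPA20 (0.48) were higher in XW, EXLA2 was lower in tsk (-0.67), and EXPA16 was lower in W (-0.92), XW (-0.85) and tsk (-0.75).

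**Figure D5:**
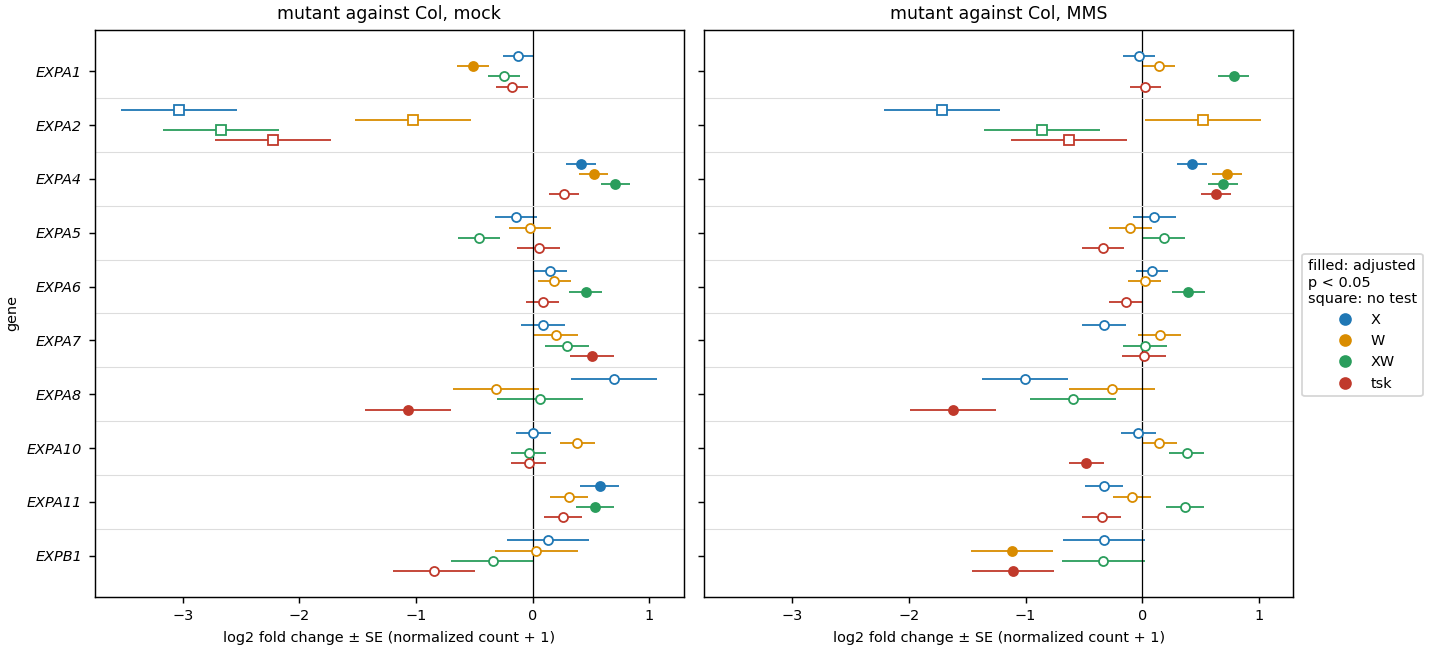
Log2 fold change with SE (horizontal axis, normalized counts + 1) of each mutant against Col for the 10 members, mock on the left and MMS on the right, with filled points for an adjusted p under 0.05 and squares for EXPA2, whose values are given without a test. EXPA2 lies at -3.03 in X mock, and EXPA4 lies right of 0 in all 8 comparisons.

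Under MMS the mutants were compared with Col MMS, whose 3 libraries are again shared. EXPA4 was higher in all 4 mutants. It counted 324, 224 and 305 in Col, 305, 396 and 448 in X, 458, 485 and 456 in W, 452, 423 and 489.8 in XW and 430.0, 416 and 466 in tsk. W, XW and tsk lay wholly above Col (0.73, SE 0.13, adjusted p = 0.000293; 0.69, SE 0.13, adjusted p = 0.000178; 0.63, SE 0.13, adjusted p = 0.000338) and held without each library. X overlapped Col (0.43, SE 0.13, adjusted p = 0.0287) and was lost without Col MMS replicate 2 or X MMS replicate 2 or 3 (0.0995 to 0.199). EXPA1 was higher in XW, with 638, 658 and 666 against 439, 335 and 372 in Col and at most 540.2 in any other mutant (0.78, SE 0.14, adjusted p = 7.98e-05). EXPA6 was higher in XW (0.40, SE 0.14, adjusted p = 0.0388) with 1 XW library inside the Col range, and was lost without Col MMS replicate 1 or 3 or XW MMS replicate 2 or 3 (0.0718 to 0.234).

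The lower calls under MMS fell mostly on low counts. EXPA8 counted 4.94, 8.65 and 3.76 in tsk against 14.7, 24.6 and 18.8 in Col (-1.62, SE 0.37, adjusted p = 0.00122), from 5 to 10 reads in the tsk libraries. EXPA10, a well-measured gene, counted 323, 243 and 326 in tsk against 399.8, 509.6 and 341 (-0.48, SE 0.15, adjusted p = 0.016), and was lost without Col MMS replicate 2 or tsk MMS replicate 2 (0.139 and 0.123). EXPB1 was called lower in W (-1.12, SE 0.35, adjusted p = 0.0374) and tsk (-1.11, SE 0.35, adjusted p = 0.0179) on 2 to 8 reads. The W call was lost without any 1 of its 6 libraries (0.0567 to 0.109), the tsk call without Col MMS replicate 1 or tsk MMS replicate 1 or 3 (0.0587 to 0.122), and both with edgeR and DESeq2 (0.101 to 0.154). EXPA2 counted 1.11, 8.76 and 3.01 in X against 12.8, 9.21 and 19.8 in Col, from 1 to 8 reads in the X libraries, which lay wholly below those of Col (-1.72, SE 0.50, without a test).

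Of the 9 members other than EXPA2, X MMS had 1 higher (all genes 6.45%) and 0 lower (4.49%), and W MMS 1 higher (7.72%) and 1 lower (3.92%). XW MMS had 3 higher (12.8%) and 0 lower (12.5%), and tsk MMS 1 higher (12.8%) and 3 lower (17.5%). The X count went to 0 without Col MMS replicate 2 or X MMS replicate 2 or 3 and to 2 without X MMS replicate 1, where EXPA8 was called, and the W count went to 1 without any 1 of its libraries. EXPB3 stood higher than in Col MMS in X (0.75), W (1.05) and XW (1.15).

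The libraries labelled XW and those of tsk were then set against each other, since TONSOKU is named in the series title with the tails of the 2 histone variants. Without MMS, EXPA8 (1.14, SE 0.37, adjusted p = 0.02), EXPA4 (0.44, SE 0.13, adjusted p = 0.00937) and EXPA6 (0.37, SE 0.14, adjusted p = 0.0491) were higher in XW and EXPA5 was lower (-0.51, SE 0.18, adjusted p = 0.0329). That is 3 of 10 higher (all genes 16.8%) and 1 lower (12.9%). None of these 4 calls held without XW mock replicate 1, the library that stood apart, where EXPA11 alone was called (0.54, adjusted p = 0.0067). None held without tsk mock replicate 2 either, and 2 of 4 were left without tsk mock replicate 1 or 3. EXPA8 counted 548, 437 and 423 in XW and 267, 193 and 184 in tsk, without overlap.

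With MMS, 6 of 10 were higher in XW than in tsk (all genes 16.4%) and 0 lower (11.7%), with a member median of 0.63. The 10 and the median include EXPA2, which was not called here, and the median over all genes is not given beside it. EXPA10 counted 625, 543 and 451 in XW and 323, 243 and 326 in tsk (0.86, SE 0.15, adjusted p = 7.59e-05). EXPA1 counted 638, 658 and 666 in XW against 337, 454 and 378 in tsk (0.76, SE 0.14, adjusted p = 0.000103). EXPA11 counted 107, 110.1 and 137 in XW against 65.9, 70.9 and 77.5 in tsk (0.71, SE 0.16, adjusted p = 0.00151). For these 3 genes the XW libraries lay wholly above those of tsk, and the calls held without each library. EXPA6 (0.54), EXPA5 (0.52) and EXPA8 (1.02) were also called and all 3 were lost without tsk MMS replicate 1, which left 3 members called. Without XW MMS replicate 3 or tsk MMS replicate 3, 4 were called, and EXPA8 was not called by edgeR (0.153).

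Whether a mutant responded to MMS otherwise than Col was tested as the difference of the 2 responses. EXPA1 fell by 1.87 on the log2 scale in XW and by 2.90 in Col, a difference of 1.03, SE 0.19, adjusted p = 0.000624, which held without each of the 12 libraries (adjusted p 0.00018 to 0.00318). In W the EXPA1 difference was 0.65, SE 0.19, adjusted p = 0.0346, where both the lower mock level and the MMS level entered, and it was lost without any 1 of 8 of the 12 libraries: Col mock replicate 1 or 3, Col MMS replicate 2 or 3, any W mock library or W MMS replicate 1 (0.0531 to 0.121). EXPA11 fell further in X than in Col (-1.77 against -0.86), a difference of -0.90, SE 0.23, adjusted p = 0.0357. That call was lost without any Col MMS library, Col mock replicate 2 or 3, X mock replicate 1 or 3, or X MMS replicate 2 or 3 (0.0574 to 0.121), and with edgeR (0.0614). Without X MMS replicate 1, EXPA8 was called as well (-2.38, adjusted p = 0.00138), and that library held 24.3 normalized counts against 3.28 and 8.03 in the others.

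Of the 9 members other than EXPA2, X had 0 called higher (all genes 1.08%) and 1 lower (0.906%). In W 1 was higher (4.39%) and 0 lower (2.61%), and in XW 1 was higher (3.84%) and 0 lower (5.05%). In tsk 0 were higher (1.36%) and 0 lower (1.12%) by limma, edgeR and DESeq2. For EXPA2 the differences were positive in all 4 (1.31, 1.55, 1.81 and 1.60 for X, W, XW and tsk, SE 0.70, without a test). Among the other superfamily genes EXPA3 fell less in XW than in Col (0.64, SE 0.14, adjusted p = 0.00413) and EXLA1 rose less (-0.61, SE 0.18, adjusted p = 0.0367).

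The members' patterns over the 10 group means were compared with those of 19816 genes, as Pearson's r of log2 values. The points share the treatment, since 5 of the 10 means are of MMS seedlings, and the values are a description. EXPA5 was closest to ASG8 and to KRP2, a cyclin-dependent kinase inhibitor (both r = 0.997). EXPB1 was closest to AT1G33440 (0.998), EXPA6 to AT1G75900 (0.998), EXPA8 to BZIP34 (0.997), EXPA1 to AT5G48900 (0.995), EXPA4 to AT5G12940 (0.995) and EXPA11 to PME44 (0.994), a pectin methylesterase gene. EXPA10 and EXPA7, which made no large fall, had looser matches. EXPA10 was closest to AT4G30650 (0.961) and the actin gene ACT7 (0.958), and EXPA7 to AT1G67460 (0.952). The loosest match was that of EXPA2, with the clock gene LHY (0.892).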

How the data were processed

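RNA of Arabidopsis seedlings was sequenced as paired ends in 30 libraries (10 groups of 3), and per the submitters' processing notes STAR, DESeq2 1.30.1 and the TAIR10 build were used, while the counter and its strand setting are not given in the sources used here. The authors deposited normalized counts, a signal in which the reads of a library were scaled by its size factor, and FPKM. Every normalized count was a whole multiple of the value of 1 read (100% within 0.01 read), so reads were recovered. The deposited FPKM values rest on lengths that do not match the annotated genes (Spearman 0.00178 over 20404 genes, equal in 6), so they served as an alternative within genes only.

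A test on raw counts had been planned. Because normalized counts were deposited, the stated fallback was used: limma 3.58.1 with a trend on log2(normalized count + 1), 1 model of all 30 libraries with 20 residual degrees of freedom, and Benjamini-Hochberg adjustment over 20298 genes with at least 10 reads in at least 3 libraries, which kept 10 of 10 members and left out 106 genes. Calls are at an adjusted p under 0.05 in 19 comparisons, and the code was tested on simulated data. Fold changes are on the log2(normalized count + 1) scale and understate low genes. The fits ran in R 4.3.3. Alternatives were edgeR 4.0.16 with RLE or, chosen after seeing the data, TMM factors, DESeq2 1.42.0, no filter, only the compared groups, the replicate number as a block, FPKM scales, and each library left out. Expression of pathway genes was read from lists, and named genes of a list are the 3 with the lowest p among those called. Likeness used genes with a mean normalized count of at least 10. The members and all lists were chosen with earlier results of these data known. Sequences and positions come from RefSeq on TAIR10.1. Protein sequences were not used here. Depth limits the genes with few reads, for which reads are given in the text.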

Additional observations from a re-analysis of the deposited data

Results flagged for a closer look

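The response to MMS differed from that of Col, by the test of the difference, for 3 values of the members. EXPA1 fell less in XW by 1.03 on the log2 scale (difference 1.03, SE 0.19, adjusted p = 0.000624) and less in W (difference 0.65, SE 0.19, adjusted p = 0.0346). In XW all 3 MMS libraries lay above all 3 of Col MMS, and in W they overlapped. EXPA11 fell further in X (difference -0.90, SE 0.23, adjusted p = 0.0357), with X mock libraries wholly above and X MMS libraries wholly below those of Col.

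Of the other superfamily genes, the EXPA3 difference in XW was 0.64 (SE 0.14, adjusted p = 0.00413) and that of EXLA1 was -0.61 (SE 0.18, adjusted p = 0.0367). All 5 values share the Col libraries.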

How the results depend on the processing

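No member value changed sign while called. Over the members, 1415 values under other settings stayed on their side of the threshold, 52 lost a call and 53 gained one; with 1 library left out the numbers were 1272, 97 and 11. The counts below are over all 10 members and so hold EXPA2, which is not tested against Col in the report. They are given without the share of all genes called under each setting. A shift in the members is therefore not told apart from a shift in the calls over all genes. With only the compared groups in the fit, the called members went from 3 to 5 in X mock, 2 to 0 in X MMS, 2 to 5 in W mock, 2 to 1 in W MMS, 3 to 6 in tsk mock, 6 to 3 for XW against tsk under MMS, and, for the differences in response, 1 to 3 in W, 1 to 2 in XW and 0 to 1 in tsk. With edgeR, by RLE or TMM, X MMS had 0, W MMS 1 and the X response 0. With DESeq2, W MMS had 1, the X response 2 and the XW response 2. With log2(FPKM + 1), X MMS had 0, W MMS 1, tsk MMS 2, and the responses 3 in X, 2 in W, 2 in XW and 1 in tsk. With log2(FPKM + 0.1), X MMS had 1, the W response 0 and the XW response 2. FPKM + 0.1 moved the median of all genes by 0.116, 0.106 and 0.103 (log2) in the MMS comparisons of Col, XW and tsk. The cause of these shifts was not tested.

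With 1 library left out, the called members ranged from 1 to 2 in X mock, 0 to 2 in X MMS, 1 to 2 in W mock, 1 to 1 in W MMS, 2 to 4 in XW mock, 2 to 4 in XW MMS, 3 to 4 in tsk MMS, 1 to 3 in tsk mock, 0 to 3 for XW against tsk in mock and 3 to 7 under MMS, and for the responses from 0 to 2 in X, 0 to 1 in W, 1 to 1 in XW and 0 to 0 in tsk. For MMS against mock they ranged from 9 to 10 in Col, 7 to 9 in X, 8 to 9 in W, 7 to 8 in XW and 8 to 9 in tsk. All these counts too hold EXPA2 and are given without the share of all genes called. They do not tell a shift in the members apart from a shift over all genes. No pairing by replicate number was seen: the deviations of libraries with the same number correlated at -0.199 to 0.123 over 135 pairs (median 0.0032). Those with other numbers correlated at -0.161 to 0.173 over 270 pairs (median 0.00066). Such correlations cannot tell whether replicates of the same number were grown or handled together. With the number as a replicate block, EXPA2 in X under MMS against mock (-1.12, adjusted p = 0.052) and EXPA6 in XW against tsk in mock (0.37, adjusted p = 0.0587) were no longer called, and no count moved by over 1.5 times. Depth limits EXPB1, EXPA8 and EXPA2 under MMS, which rest on 1 to 24 reads per library.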
